A study of Mus musculus with 12 samples.

Results

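RNA of fibroblasts on stiff alginate gels that relax stress slowly was compared with RNA of fibroblasts on stiff gels that hardly relax. The comparison takes the 6 libraries labelled 20 kPa, 3 on viscoelastic and 3 on elastic gels, out of the 12 of the series. The other 6 libraries are the same gel types at 2 kPa and enter the fit and the test of whether the gel effect differs with stiffness. Cells were primary fibroblasts from the ears of C57BL/6 mice of both sexes at 1 month of age, used at passage 2 and kept on the gels for 48 h. All gels were alginate carrying the adhesion peptide RGD. Per the study's methods, elastic and slow-relaxing gels were made from the same alginate, and crosslinker amounts were tuned to reach each stiffness. Elastic gels were crosslinked covalently and viscoelastic gels ionically with calcium. Slow relaxation, crosslinker chemistry and calcium therefore cannot be told apart in these libraries. The labels do not say whether the replicates came from separate animals or cultures, so p-values measure only the spread between these samples.

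A cell on a matrix pulls on it through integrins, which couple the matrix to actin through adaptors such as talin and vinculin. On an elastic gel the pull is stored and returned, whereas on a viscoelastic gel the matrix yields and the force decays with time. Force on adhesions is known to feed into actin assembly, the transcriptional coactivators MRTF and YAP, the nuclear envelope and entry into the cell cycle. Fibroblasts also build and remodel connective tissue, so matrix genes are part of what this cell type reads out.

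Between 39650881 and 43612754 counts fell on genes in each of the 6 libraries, and values are given as CPM, read counts scaled to the library total with TMM factors. A gene was called when the Benjamini-Hochberg (BH) adjusted p of edgeR's quasi-likelihood test over 14541 tested genes was under 0.05. On this rule 2527 genes (17.4%) were higher and 2338 (16.1%) lower on viscoelastic gels at 20 kPa. Most of these differences were small: 3487 of the 4865 called genes changed by less than 0.5 on the log2 scale, and 240 (1.65% of the tested genes) changed at least 2-fold, 151 upwards and 89 downwards. For 3803 genes (26.2%) every viscoelastic library was above every elastic one, and for 3449 (23.7%) below. Elastic replicate 3 had the highest value of its group in 70.3% of the genes called lower, and without it 1672 genes were called higher and 1503 lower. Elastic replicate 1 had the lowest value of its group in 68.9% of the genes called lower. Viscoelastic replicate 2 had the lowest value of its group in 60.9% of the genes called lower, and its mitochondrial genes took 3.34% of counts, against 1.77% to 2.68% in the other 5 libraries.

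The gene lists used below separate in direction, as the plot of called genes by list shows. Called genes of mitosis, DNA replication, the nuclear pore and lamina, integrins and the contractile machinery lay mainly on the lower side. Called genes of ribosomal proteins, the respiratory chain, glutathione S-transferases and complement lay mainly on the higher side. Matrix, WNT, BMP and growth factor lists were split, with named members in both directions. Over all tested genes, the log2 fold change had a median of 0.016. List counts given below are to be read against 17.4% called higher and 16.1% called lower over all tested genes.

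**Figure D1:**
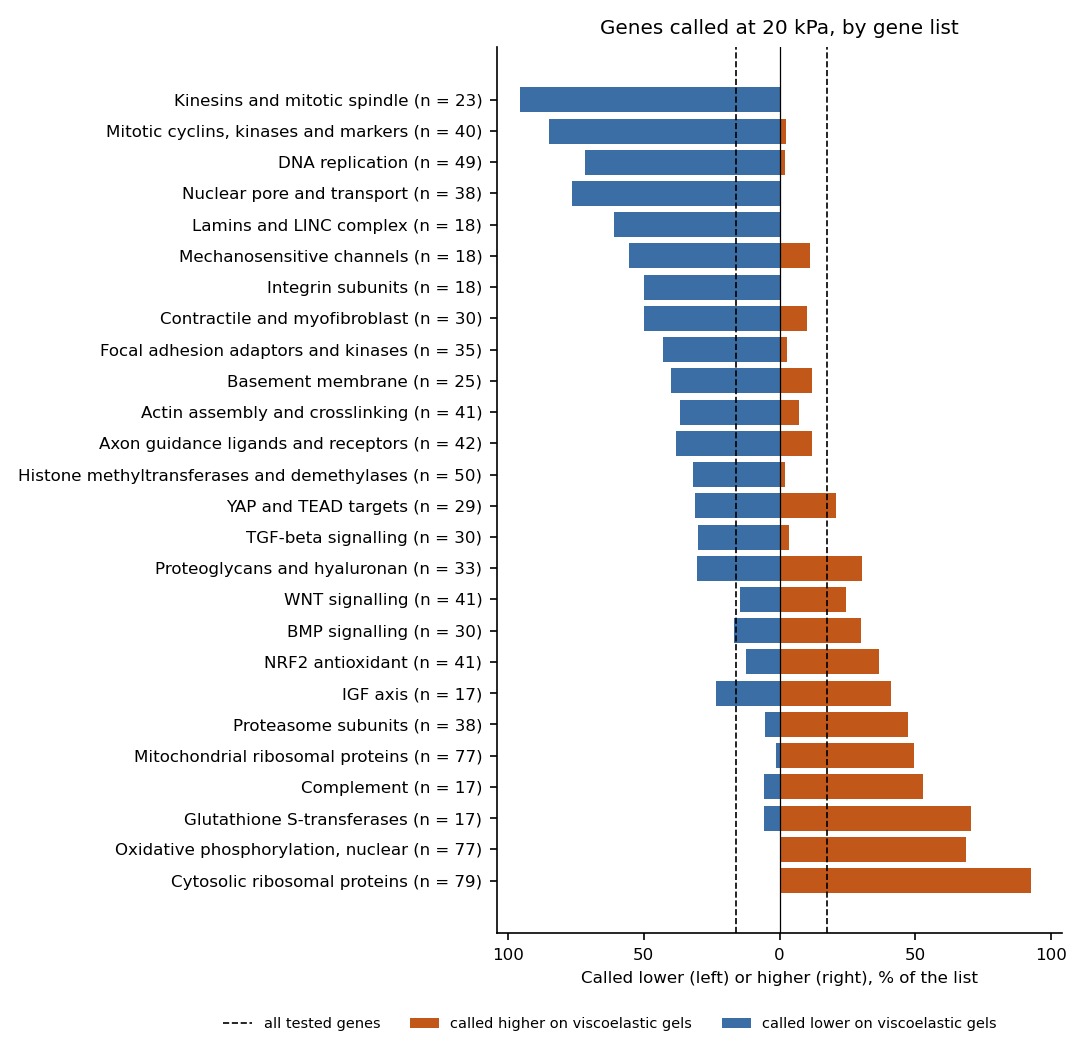
Bars give the share of the tested genes of each list that edgeR called lower (left, blue) or higher (right, orange) with viscoelastic gels at 20 kPa, with the number tested in parentheses. Dashed lines mark the shares over all tested genes, 16.1% lower and 17.4% higher, and the kinesin list (22 of 23 lower) and the cytosolic ribosomal proteins (73 of 79 higher) reach farthest on either side.

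Cell cycle genes were mainly lower on viscoelastic gels at 20 kPa. Of 112 tested genes in 3 lists (mitotic cyclins and kinases, spindle kinesins and DNA replication), 91 were called lower and 2 higher, against 16.1% and 17.4% of all tested genes. The median log2 fold change was -0.59 over 40 mitotic genes, -0.61 over 23 kinesin and spindle genes and -0.40 over 49 replication genes. Bub1b, a kinase of the spindle checkpoint, read 79.3, 78.6 and 84.1 CPM on elastic and 55.7, 44.3 and 54.1 CPM on viscoelastic gels (log2 fold change -0.65 ± 0.076 (SE), adjusted p = 0.000101, edgeR). Values of this form given in parentheses from here on are log2 fold changes with their SE. The groups did not overlap, and viscoelastic replicate 2 was the lowest library, as it was for all 56 genes called lower in the mitotic and kinesin lists. In bulk RNA, fewer cycling cells and less of these transcripts per cell cannot be told apart. By EdU labelling of cells on gels of this stiffness, the study found no significant effect of viscoelasticity on proliferation. How that relates to the lower transcripts was not tested. Mki67, which encodes the proliferation antigen Ki-67, read 555, 521 and 670.2 CPM against 364, 279 and 376 CPM (-0.78 ± 0.11). Anln, the cytokinesis scaffold anillin, read 272, 275 and 313 CPM against 177, 132 and 163 CPM (-0.86 ± 0.11). The phosphatase Cdc25b, which activates mitotic cyclin-dependent kinases, fell by 0.66 on the log2 scale and Ccnf by 0.64. Kif15 and Kif2c, motors of the spindle, fell by 0.79 and 0.62, and the spindle proteins Spag5 and Kif18b by 0.71 and 0.68. One member of the mitotic list was higher: Pttg1, which encodes securin, read 13, 11.2 and 10.6 CPM on elastic and 15.1, 15.9 and 15.7 CPM on viscoelastic gels (0.42 ± 0.082, adjusted p = 0.00139, edgeR).

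Genes of S phase moved in the same direction. Mcm10, needed to start replication forks, read 19.6, 23.4 and 25.3 CPM on elastic and 14.6, 11.4 and 13.5 CPM on viscoelastic gels (-0.79 ± 0.096 (SE), adjusted p = 0.000112, edgeR). Mcm3, a subunit of the replicative helicase, fell by 0.60 on the log2 scale, the checkpoint adaptor Clspn by 0.80 and the ribonucleotide reductase subunit Rrm1 by 0.65. The single-strand binding subunit Rpa3 was the one replication gene called higher (0.25 ± 0.084, adjusted p = 0.0328, edgeR). Fanca, of the Fanconi anaemia repair pathway, was among the 10 genes that fell with the lowest adjusted p, at 14.7, 17.3 and 17.04 CPM on elastic against 8.59, 6.57 and 8.30 CPM on viscoelastic gels (-1.06 ± 0.11, adjusted p = 7.50e-05, edgeR). Hjurp, the chaperone that loads the centromeric histone, read 116, 130.0 and 135 CPM against 88.3, 80.5 and 86.3 CPM (-0.58 ± 0.062). In both genes every viscoelastic library was below every elastic one, which was a condition for naming a gene by its lowest adjusted p.

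Cyclin-dependent kinase inhibitors were higher in 3 cases. Cdkn1c, the imprinted inhibitor p57, read 20.8, 12.6 and 17.01 CPM on elastic and 40.6, 57.9 and 42.4 CPM on viscoelastic gels (1.48 ± 0.17 (SE), adjusted p = 0.000101, edgeR), which put it among the genes that rose most. Cdkn2b, encoding p15, read 6.02, 5.47 and 6.56 CPM against 8.66, 8.69 and 8.75 CPM (0.53 ± 0.084), with narrow groups well apart. Cdkn2a rose by a smaller amount (0.31 ± 0.11, adjusted p = 0.0406, edgeR), a call lost in 12 of 16 alternatives. Cdkn1a, the p53 target p21, had overlapping groups at 175, 178 and 210.0 CPM and 207, 183 and 192 CPM and was not called (0.050 ± 0.088). Of the cyclins and kinases of G1, Ccne2 fell by 0.71, Ccne1 by 0.40 and Cdk2 by 0.37 on the log2 scale, and the pocket protein gene Rbl1 by 0.70.

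Promoters of the mitotic genes held the letters of known cell cycle elements, and 6 are shown because the genes fell together. Sequences are RefSeq promoters of GRCm38.p6, found for 10882 of the tested genes, and the motif search covered the 250 bases before the annotated start on both strands. The cell cycle homology region (CHR, letters TTTGAA) was in 28.6% of 35 mitotic and 35.0% of 20 kinesin promoters, against 10.7% of all 10882. The CCAAT box (letters CCAAT) was in 74.3% and 70.0%, against 36.5% of all. Both were in 10 of the 35 and 5 of the 20, against 4.11% of all. Either motif alone was also frequent in some other lists. CHR letters were in 26.7% of 30 promoters of interferon-induced genes, and CCAAT letters in 72.4% of 29 promoters of cholesterol and fatty acid synthesis. CCAAT letters were also in 9 of 15 promoters of glutathione S-transferases, a list mainly called higher. Both motifs together were in 3 of the 30, 1 of the 29 and 0 of the 15. The 100 bases before the start are printed 5′ to 3′ for the 6 genes called lower that have both motifs in that window and the lowest adjusted p, with CHR and CCAAT letters of either strand in capitals.
Kif22, chr7:127042421-127042520, minus strand: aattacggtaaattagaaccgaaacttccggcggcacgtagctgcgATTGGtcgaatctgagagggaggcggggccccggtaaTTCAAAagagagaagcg
Cdc20, chr4:118437344-118437443, minus strand: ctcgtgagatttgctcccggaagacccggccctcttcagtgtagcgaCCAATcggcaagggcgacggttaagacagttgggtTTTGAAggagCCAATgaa
Kif11, chr19:37376282-37376381, plus strand: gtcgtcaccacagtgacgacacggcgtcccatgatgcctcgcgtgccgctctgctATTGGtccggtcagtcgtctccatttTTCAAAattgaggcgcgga
Ube2c, chr2:164769829-164769928, plus strand: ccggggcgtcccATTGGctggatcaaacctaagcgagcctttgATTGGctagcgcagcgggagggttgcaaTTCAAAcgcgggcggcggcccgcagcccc
Ckap5, chr2:91526662-91526761, plus strand: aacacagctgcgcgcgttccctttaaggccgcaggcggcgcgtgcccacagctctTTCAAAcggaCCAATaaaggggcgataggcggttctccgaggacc
Cdk1, chr10:69352913-69353012, minus strand: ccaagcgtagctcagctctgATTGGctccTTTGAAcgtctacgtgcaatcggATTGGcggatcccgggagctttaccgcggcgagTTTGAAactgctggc

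These 6 genes fell by 0.51 (Kif22), 0.53 (Cdc20), 0.72 (Kif11), 0.43 (Ube2c), 0.39 (Ckap5) and 0.34 (Cdk1) on the log2 scale. Among replication genes, the E2F letters TTTCGCGC were in 4 of 39 promoters (10.3%), against 0.469% of all. One of these lay within 100 bases of the start in a gene called lower, Orc1, a subunit of the origin recognition complex that read 9.46, 9.69 and 12.2 CPM on elastic and 6.58, 6.15 and 6.70 CPM on viscoelastic gels (-0.69 ± 0.11 (SE), adjusted p = 0.000492, edgeR). Its E2F letters stand in capitals. A match of letters is a description and does not show binding.
Orc1, chr4:108579354-108579453, plus strand: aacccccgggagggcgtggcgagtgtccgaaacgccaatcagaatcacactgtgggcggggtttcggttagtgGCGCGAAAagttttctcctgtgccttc

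**Figure D2:**
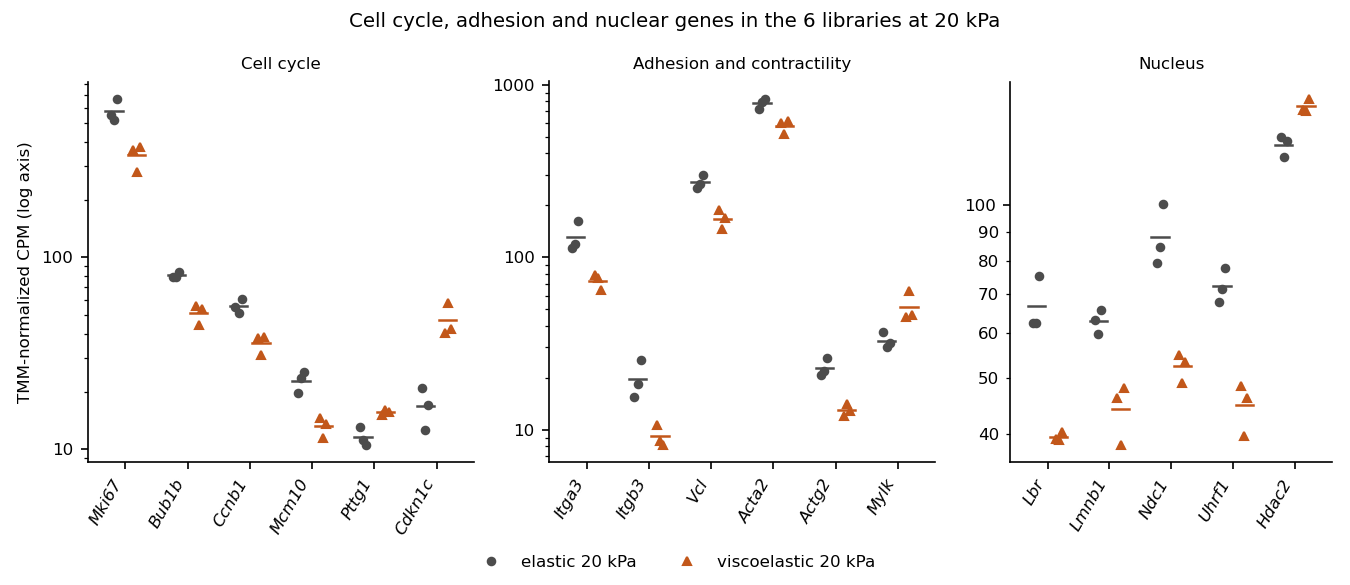
Each point is 1 library at 20 kPa, as TMM-normalized CPM on a log axis, with circles for elastic and triangles for viscoelastic gels and short lines at the mean of 3. All cell cycle genes but Pttg1 and Cdkn1c, and the adhesion and nuclear genes but Mylk and Hdac2, sit lower on viscoelastic gels, and no pair of groups overlaps.

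Called genes of the nuclear envelope were lower as well. The lamina underlies the nuclear membrane, the LINC complex ties it to the cytoskeleton, and pores carry traffic through it. Of 18 lamin and LINC genes 11 were called lower and 0 higher, and of 38 pore and transport genes 29 were called lower and 0 higher (medians -0.28 and -0.30). Lbr, a receptor that anchors lamins and heterochromatin, read 62.5, 62.4 and 75.4 CPM on elastic and 39.2, 39.02 and 40.3 CPM on viscoelastic gels (-0.76 ± 0.079 (SE), adjusted p = 7.50e-05, edgeR). The 3 viscoelastic libraries lay within a narrow range below all elastic ones. Lmnb1 read 63.2, 59.8 and 65.8 CPM against 46.3, 38.4 and 48.1 CPM (-0.51 ± 0.087) and Lmna read 569, 578 and 639 CPM against 489, 467 and 470.1 CPM (-0.32 ± 0.080). The LINC gene Sun2 fell by 0.44 and the lamin-binding Tmpo by 0.45 on the log2 scale. Ndc1, a pore membrane protein, read 79.3, 84.8 and 101 CPM on elastic and 54.8, 49.05 and 53.5 CPM on viscoelastic gels (-0.75 ± 0.077, adjusted p = 7.50e-05, edgeR), and the scaffold nucleoporins Nup155 and Nup160 fell by 0.56 and 0.54. With gene length and GC content corrected for, 11 lamin and LINC genes and 32 pore genes were called lower.

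Chromatin genes were called in both directions. Of 50 histone methyltransferases and demethylases 16 were called lower and 1 higher, Kdm6b, a demethylase of H3K27 (0.26 ± 0.061 (SE), adjusted p = 0.00534, edgeR). The lower ones included Nsd2 and Dot1l, which methylate H3K36 and H3K79, at -0.61 and -0.35, and Suv39h2 and Suv39h1, which methylate H3K9, at -0.61 and -0.27. This list holds long genes (median exon length 7778 bases, against 4376 over all tested genes), and with length and GC corrected 6 were called lower and 4 higher. Of 21 DNA methylation genes 4 were called higher and 5 lower (median -0.014), among the latter Uhrf1 and Dnmt1, which maintain methylation after replication. Without elastic replicate 2 or elastic replicate 3, 1 gene of this list was called higher. Uhrf1 read 68.01, 71.5 and 77.8 CPM against 48.6, 39.7 and 46.3 CPM (-0.69 ± 0.078) and Dnmt1 read 181, 187 and 208 CPM against 136, 114 and 131 CPM (-0.60 ± 0.076). Of 36 genes of histone acetylation 9 were called higher and 7 lower. Hdac2 was higher (132, 122 and 129 CPM against 147, 146 and 153 CPM, 0.22 ± 0.054) and so were Kat8 at 0.29 and Sirt5 at 0.46, whereas Hdac7 and Hdac4 fell by 0.34 and 0.29 on the log2 scale. Parp1, which marks DNA breaks, was not called (-0.13 ± 0.060, adjusted p = 0.11, edgeR).

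Called integrin and focal adhesion genes were mainly lower on viscoelastic gels. Of 18 integrin subunits 9 were called lower and 0 higher, and of 35 adaptors and kinases of focal adhesions 15 were called lower and 1 higher (medians -0.24 and -0.17). Itga3, which pairs with Itgb1 to bind laminin, read 113, 119 and 161 CPM on elastic and 78.4, 76.1 and 64.8 CPM on viscoelastic gels (-0.84 ± 0.11 (SE), adjusted p = 0.000173, edgeR). Itgb3, of the RGD-binding vitronectin receptor, read 15.5, 18.3 and 25.3 CPM against 10.6, 8.66 and 8.20 CPM (-1.10 ± 0.17). In both genes elastic replicate 3 was the highest library and the groups did not overlap. Itgav and Itga5, further RGD-binding subunits, fell by 0.61 and 0.59 on the log2 scale. Of the adaptors, Vcl fell by 0.70, Tln1 by 0.37, Tes by 0.36 and Pdlim7 by 0.30, and Tln2 read -0.20 (adjusted p = 0.0279, edgeR). The exception among adaptors was Rsu1, a partner of the ILK complex, at 128, 112 and 117 CPM against 139, 146 and 149 CPM (0.28 ± 0.059, adjusted p = 0.00255, edgeR).

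Contractile and actin genes were also called mainly lower. Of 30 contractile and myofibroblast genes 15 were called lower and 3 higher, and of 41 actin assembly genes 15 were lower and 3 higher. Acta2, the smooth muscle actin of myofibroblasts, read 722, 795 and 829 CPM on elastic and 597, 517 and 620.0 CPM on viscoelastic gels (-0.44 ± 0.081 (SE), adjusted p = 0.00113, edgeR). Actg2 read 20.7, 21.8 and 25.99 CPM against 11.98, 14.1 and 12.8 CPM (-0.81 ± 0.11) and Tagln, the actin-binding transgelin, 33.99, 39.9 and 44.8 CPM against 29.9, 23.9 and 25.6 CPM (-0.58 ± 0.098). Each of these was lower in all 3 viscoelastic libraries than in any elastic one. The crosslinker Actn4 and the motor Myh9 fell by 0.43 and 0.45 on the log2 scale, Flnc by 0.55, and the formins Fmnl3, Diaph3 and Diaph1 by 0.45, 0.74 and 0.42. The 3 contractile genes that rose were Mylk, the myosin light chain kinase, at 36.7, 30.02 and 31.9 CPM against 44.9, 63.95 and 46.6 CPM (0.66 ± 0.11, adjusted p = 0.000671, edgeR), Myl6 at 0.30 and Cnn3 at 0.29. Tmsb10, which binds actin monomers, rose from 158, 157 and 157 CPM to 222, 229 and 248 CPM (0.57 ± 0.077). Without elastic replicate 3, 9 contractile genes were called lower in place of 15. Markers of pericytes and smooth muscle moved with this list: 3 of 8 were called lower (median -0.491, and -0.276 without elastic replicate 3), and their summed level was 392 to 529 CPM on elastic and 293 to 349 CPM on viscoelastic gels. The part of such cells in the fall of Acta2, Actg2 and Tagln was not tested.

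Contractile genes answered the gel differently at the other stiffness. At 2 kPa 11 of the 30 were called higher and 2 lower on viscoelastic gels, against 8.77% and 11.1% of all tested genes. Their median was 0.112 in place of -0.193. The 8 pericyte and smooth muscle markers parted from this list at 2 kPa, with 1 called higher, 3 lower and a median of -0.466. In the test of the difference between the gel effects, 12 of the 30 were called more negative at 20 kPa, against 3.12% of all tested genes. For Acta2 the log2 fold change was 0.28 at 2 kPa, and the difference was -0.71 ± 0.12 (SE, adjusted p = 0.00163, edgeR). For Actg2 it was 0.45 at 2 kPa (difference -1.26 ± 0.15) and for Tagln 0.30 (difference -0.88 ± 0.14). Cnn1, calponin, fell at 20 kPa (-0.26 ± 0.079) and rose at 2 kPa (0.54). The adaptors Zyx and Tln2 did the same, at -0.24 and -0.20 for 20 kPa against 0.36 and 0.34 for 2 kPa (adjusted p of the difference = 0.000979 and 0.0026, edgeR).

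Targets of YAP and TEAD, a transcription factor pair known to answer stiffness, moved both ways. Of 29 genes 6 were called higher and 9 lower, with 3 higher without elastic replicate 2 or viscoelastic replicate 2. Ccn1 read 1086, 840.0 and 1175 CPM on elastic and 1221, 1730 and 1279 CPM on viscoelastic gels (0.45 ± 0.15 (SE), adjusted p = 0.0299, edgeR), while Ccn2, the most used reporter of the pathway, had overlapping groups at 3251, 2781 and 2883 CPM and 2827, 3360 and 2862 CPM (0.021 ± 0.12, not called). Ankrd1 read 7.05, 8.42 and 11.9 CPM against 5.36, 5.34 and 6.30 CPM (-0.68 ± 0.17), opposite to its 0.82 at 2 kPa (adjusted p of the difference = 0.00169, edgeR). The receptor tyrosine kinase Axl read 364, 397 and 489 CPM against 279, 276 and 259 CPM (-0.62 ± 0.096), and Nt5e, the ectonucleotidase CD73, 92.5, 102 and 147 CPM against 61.8, 55.8 and 56.9 CPM (-0.97 ± 0.13). Myof and Dock5 fell by 0.61 and 0.73 on the log2 scale, and Fjx1, Tead2, Rbms3 and Nuak2 rose by 0.63, 0.34, 0.28 and 0.40. The TEAD letters GGAATG were in 10 of 21 promoters of this list (47.6%), against 10.9% of all promoters searched, and in 9 of 26 contractile promoters (34.6%). The stretches around the letters are printed for the 5 genes with the letters and the lowest adjusted p among those called. Letters of either strand stand in capitals.
Axl, chr7:25788931-25788983, minus strand: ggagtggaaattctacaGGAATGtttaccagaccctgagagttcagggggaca
Crim1, chr17:78200139-78200204, plus strand: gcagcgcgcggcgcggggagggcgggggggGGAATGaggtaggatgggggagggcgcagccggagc
Ankrd1, chr19:36119932-36119997, minus strand: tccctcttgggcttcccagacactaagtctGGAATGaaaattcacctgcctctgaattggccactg
Ptpn14, chr1:189728092-189728157, plus strand: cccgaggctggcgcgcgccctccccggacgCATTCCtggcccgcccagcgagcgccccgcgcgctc
Ccn1, chr3:145650053-145650118, minus strand: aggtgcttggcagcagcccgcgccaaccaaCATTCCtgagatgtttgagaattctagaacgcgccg

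Of these 5 genes Crim1 and Ptpn14 fell by 0.34 and 0.41 on the log2 scale, Axl and Ankrd1 fell as given above, and Ccn1 rose. The Ccn1 call was lost in 7 of 16 alternatives, and its value was 0.27, not called, without viscoelastic replicate 2. Channels and caveolae also belong to force sensing. Of 18 mechanosensitive channel genes 10 were called lower and 2 higher. Piezo1, a stretch-gated cation channel, read 218, 260.2 and 291 CPM on elastic and 179.7, 157 and 157 CPM on viscoelastic gels (-0.64 ± 0.12 (SE), adjusted p = 0.000891, edgeR), and Kcnk2, the stretch-gated potassium channel TREK-1, read 32.01, 32.7 and 32.9 CPM against 52.5, 51.2 and 54.3 CPM (0.69 ± 0.076), so the 2 channels moved in opposite directions with no overlap. Lrrc8c, Tmem63a and Pkd1 fell by 0.54, 0.35 and 0.54, and Panx3 rose by 0.74. Of 10 caveolar genes, Cavin2 was lower (145, 172 and 251.1 CPM against 99.2, 94.3 and 96.4 CPM, -0.97 ± 0.20), Pacsin2 was lower at -0.24 and Cavin3 higher at 0.21. The others were not called, at -0.16 for Cav1, -0.25 for Cav2, -0.19 for Cav3, -0.060 for Cavin1, -0.36 for Cavin4, -0.093 for Ehd2 and 0.17 for Pacsin3. Of 37 genes of calcium handling 13 were called lower and 2 higher.

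Matrix genes were called in both directions. Of 33 proteoglycan and hyaluronan genes 10 were called higher and 10 lower. Ogn, osteoglycin, read 688, 528 and 443 CPM on elastic and 1137, 1442 and 1257 CPM on viscoelastic gels (1.21 ± 0.15 (SE), adjusted p = 0.000115, edgeR), and Omd, osteomodulin, read 91.1, 73.5 and 61.9 CPM against 159, 185 and 178 CPM (1.20 ± 0.16). In these, as in Podn (0.92), Fmod (0.71), Dcn (0.75) and Lum (0.70), all viscoelastic libraries were higher than all elastic ones. These proteins bind collagen fibrils. Dpt, dermatopontin, which binds decorin, rose further, from 27.7, 20.1 and 16.1 CPM to 52.1, 95.5 and 54.6 CPM (1.66 ± 0.27). On the lower side stood the cell surface proteoglycans Gpc1 and Sdc3 at -0.69 and -0.47, Vcan, versican, at 535, 523 and 547 CPM against 367, 347 and 357 CPM (-0.58 ± 0.097), and the hyaluronan receptor Cd44 at 685, 760.3 and 1049 CPM against 473, 497 and 463 CPM (-0.80 ± 0.13). The hyaluronan synthase Has1 was low in all libraries and fell from 3.04, 2.90 and 4.44 CPM to 1.10, 2.14 and 1.23 CPM (-1.21 ± 0.25).

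The most abundant matrix transcripts took part unequally. Fn1, fibronectin, read 43635, 44299 and 47113 CPM on elastic and 33244, 30703 and 31007 CPM on viscoelastic gels (-0.51 ± 0.11 (SE), adjusted p = 0.00345, edgeR). Col1a1 had overlapping groups at 6415, 5882 and 6066 CPM and 6161, 6354 and 6177 CPM and was not called (0.026 ± 0.084). Of 18 fibrillar and associated collagens 5 were called in each direction. Without elastic replicate 3, 1 was called higher, and without viscoelastic replicate 1 or viscoelastic replicate 2, 2 were. Without viscoelastic replicate 3, 3 were called lower. Col6a3 read 996, 984 and 1316 CPM against 642, 615 and 622 CPM (-0.81 ± 0.12) and Col12a1, Col5a1 and Col16a1 fell by 0.68, 0.40 and 0.24 on the log2 scale. Col14a1, which coats fibrils, rose from 58.04, 58.3 and 51.3 CPM to 98.5, 79.9 and 95.8 CPM (0.71 ± 0.085), and Col23a1, Col11a1 and Col8a2 rose by 0.39, 0.35 and 0.28. Of 25 basement membrane genes 10 were called lower and 3 higher: Col4a1 read 1072, 1086 and 1242 CPM against 809.8, 781 and 749.7 CPM (-0.54 ± 0.080), while the nidogens parted, Nid1 at -0.54 and Nid2 at 0.66. The other 2 higher genes of that list were Sparc, at 0.35, and Lama3, at 1.18 with low levels of 0.607, 0.570 and 0.666 CPM and 1.33, 1.44 and 1.40 CPM. Tnc, tenascin C, fell from 1951, 1875 and 2150 CPM to 1262, 1311 and 1242 CPM (-0.65 ± 0.078), and Postn, periostin, rose from 1748, 1551 and 1399 CPM to 2421, 2604 and 2566 CPM (0.69 ± 0.10).

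Microfibril and protease genes gave further named cases. Mfap2, a microfibril glycoprotein, read 18.6, 16.2 and 14.4 CPM on elastic and 32.7, 38.5 and 30.3 CPM on viscoelastic gels (1.04 ± 0.12 (SE), adjusted p = 9.42e-05, edgeR). Efemp1 and Mfap4 rose by 0.66 and 0.63 on the log2 scale, and Fbln2 and Ltbp1 fell by 0.52 and 0.52. Adamts9, a protease that cleaves versican, read 35.1, 34.03 and 34.05 CPM against 64.2, 69.96 and 65.2 CPM (0.95 ± 0.087), among the lowest adjusted p of all genes that rose. At 2 kPa it fell, at -0.98, and the difference between stiffnesses was 1.93 ± 0.12 (SE, adjusted p = 1.35e-06, edgeR). Sulf1, which removes sulfate from heparan sulfate, fell from 452, 459.7 and 539 CPM to 287, 286 and 278 CPM (-0.77 ± 0.083). Mmp15, a membrane-bound metalloproteinase, and its inhibitor family member Timp4 rose by 0.91 and 1.11. Timp1 fell from 674, 703 and 839 CPM to 511, 508 and 482 CPM (-0.56 ± 0.094), and Mmp17 fell by 0.63, a call lost in 8 of 16 alternatives. Mmp9 read 1.54, 1.57 and 4.61 CPM against 1.22, 1.06 and 1.08 CPM (-1.19 ± 0.40), and -0.48, not called, without elastic replicate 3.

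**Figure D3:**
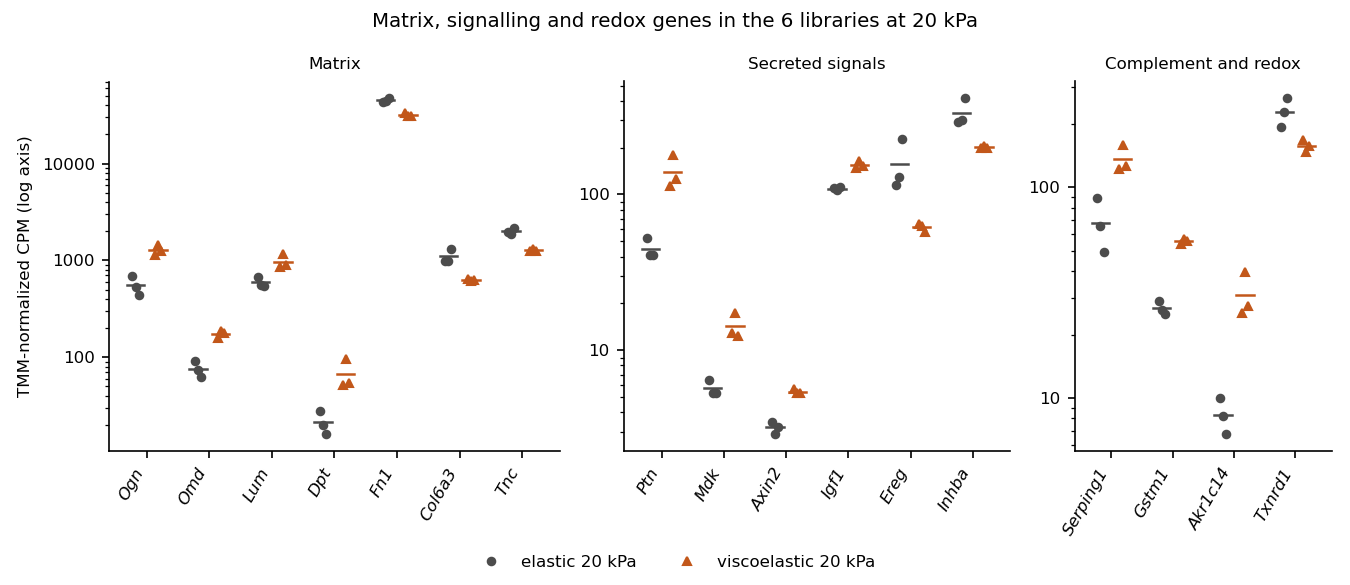
Each point is 1 library at 20 kPa, as TMM-normalized CPM on a log axis, with circles for elastic and triangles for viscoelastic gels and short lines at the mean of 3. Ogn, Omd, Lum, Dpt, Ptn, Mdk, Axin2, Igf1 and all genes of the right panel but Txnrd1 sit higher on viscoelastic gels, and Fn1, Col6a3, Tnc, Ereg, Inhba and Txnrd1 lower.

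Growth factor genes moved in both directions on viscoelastic gels. Of 35 genes of PDGF, FGF, HGF and related signalling 11 were called higher and 10 lower. Ptn, the heparin-binding factor pleiotrophin, read 52.6, 40.9 and 40.9 CPM on elastic and 113, 178 and 126 CPM on viscoelastic gels (1.64 ± 0.22 (SE), adjusted p = 0.000173, edgeR), and its relative Mdk, midkine, read 6.49, 5.34 and 5.33 CPM against 12.99, 17.4 and 12.4 CPM (1.32 ± 0.19). Pdgfa and the decoy receptor Fgfrl1 rose by 0.46 and 0.42 on the log2 scale. Ereg, the EGF receptor ligand epiregulin, fell from 115, 129 and 227 CPM to 64.7, 63.2 and 57.8 CPM (-1.34 ± 0.20), with elastic replicate 3 far above the rest. Both HGF and its receptor fell: Hgf read 36.4, 41.3 and 35.6 CPM against 28.2, 26.7 and 27.1 CPM (-0.47 ± 0.074) and Met 56.3, 59.9 and 74.01 CPM against 37.9, 34.8 and 34.9 CPM (-0.82 ± 0.10). Bdnf fell by 0.65. In the IGF axis 7 of 17 genes were higher and 4 lower: Igf1 read 109.8, 107 and 111 CPM against 149, 164 and 152 CPM (0.50 ± 0.10), Stc2, whose product inhibits cleavage of an IGF binding protein, rose by 1.19, Igfbp4 and Igfbp2 by 0.42 and 0.41, and the receptors Igf1r and Igf2r fell by 0.39 and 0.27.

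Among developmental signals, WNT genes were called in both directions and TGF-beta genes mainly lower. Of 41 WNT genes 10 were higher and 6 lower, with a median of 0.028. Axin2, a feedback inhibitor that canonical WNT signalling induces, read 3.48, 2.90 and 3.23 CPM on elastic and 5.69, 5.30 and 5.29 CPM on viscoelastic gels (0.76 ± 0.13 (SE), adjusted p = 0.000576, edgeR). Nkd1, another feedback gene, read 2.29, 1.78 and 1.48 CPM against 4.12, 4.24 and 4.34 CPM (1.19 ± 0.17), and Apcdd1 and Lef1 rose by 0.82 and 0.44 on the log2 scale. In Axin2 and Nkd1 no viscoelastic library overlapped the elastic ones. The lower ones included the receptors Ror2, Fzd4 and Lrp5 at -0.39, -0.41 and -0.23. Of 30 BMP genes 9 were higher and 5 lower, with Id2, a BMP target, at 0.28, the antagonist Chrdl1 at 0.68, the antagonist Grem1 at -0.50 and the receptor Bmpr1b at -0.55. Of 30 TGF-beta genes 9 were lower and 1 higher. That one was Tgfb3, at 0.20 with overlapping groups, and its call was lost in 13 of 16 alternatives. Smad7, the feedback inhibitor, read 55.96, 59.05 and 65.9 CPM against 40.2, 38.5 and 43.3 CPM (-0.57 ± 0.077). Inhba, of activin A, fell by 0.73 on the log2 scale. Tgfb1 itself was not called (-0.26 ± 0.097, adjusted p = 0.0543, edgeR).

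Receptors and signal regulators were found among the genes with the lowest adjusted p or the largest fold change. Rgs3, which shuts off G proteins, read 22.8, 22.1 and 21.9 CPM on elastic and 33.9, 34.8 and 33.9 CPM on viscoelastic gels (0.62 ± 0.065 (SE), adjusted p = 7.50e-05, edgeR). Arrdc3, an alpha-arrestin that promotes receptor uptake, fell by 0.75 on the log2 scale, whereas its relatives were not called, at -0.055 for Arrdc1, -0.018 for Arrdc2, 0.18 for Arrdc4 and 0.13 for Txnip. The serotonin receptor Htr2a fell from 18.4, 19.7 and 29.9 CPM to 8.33, 8.55 and 8.88 CPM (-1.40 ± 0.20), and the protease-activated receptor F2rl1 from 10.9, 8.89 and 16.1 CPM to 5.92, 5.49 and 5.12 CPM (-1.11 ± 0.21). The kinase Pkn3 read 23.4, 26.4 and 25.8 CPM against 15.2, 14.7 and 14.9 CPM (-0.76 ± 0.076). Il13ra1 fell by 0.51, the PAS domain kinase Pask by 0.66 and the NKG2D ligand Ulbp1 by 0.88. Slco2a1, a prostaglandin transporter, fell by 1.17, coagulation factor F5 by 1.38, the intermediate filament nestin (Nes) by 1.17, the SH2 adaptor Sh2d5 by 1.33, the synaptic adhesion gene Lrrtm2 by 1.10 and the tetraspanin Cd53 by 1.26. The chemokine Ppbp fell by 1.27, and S100b, a calcium-binding protein also made by cartilage and fat, rose by 0.94, G0s2, an inhibitor of fat cell lipase, by 0.99, the membrane lectin Chodl by 1.82, the scavenging chemokine receptor Ackr4 by 1.48 and the secreted Egfl6 by 1.27.

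Called complement genes were mainly higher, and most interferon-induced and cytokine genes were not called. Of 17 complement genes 9 were called higher and 1 lower, with a median of 0.41. Serping1, the C1 inhibitor, read 89, 65.9 and 49.2 CPM on elastic and 123, 159.8 and 126 CPM on viscoelastic gels (1.00 ± 0.18 (SE), adjusted p = 0.000837, edgeR), and C1ra and C1s1, its protease targets, rose by 0.96 and 0.88 on the log2 scale. Masp1 fell by 0.34. Of 40 interferon-induced genes 35 had a log2 fold change above 0 (median 0.345), but 4 were called higher and 1 lower, against 17.4% and 16.1% of all tested genes, with Psmb9 at 1.19 and B2m at 0.35, and Rsad2 at -1.22. The count moved with single libraries: 11 were called higher without elastic replicate 1, 10 without viscoelastic replicate 3, 7 without viscoelastic replicate 2 at 2 kPa, and 2 without elastic replicate 2, elastic replicate 3 or viscoelastic replicate 2. The median was 0.057 without viscoelastic replicate 2. Without a filter on low counts 18 of 43 were called higher. The interferon-induced DNA sensors Ifi203 and Mndal, named for their fold change, read 7.40, 4.42 and 3.92 CPM and 9.36, 6.23 and 6.16 CPM on elastic against 11.1, 19.7 and 10.3 CPM and 15.5, 24.5 and 15.1 CPM on viscoelastic gels. Of 28 chemokine and cytokine genes 9 were lower and 4 higher. Ptgs2, the inducible cyclooxygenase, fell from 481, 486 and 842 CPM to 316, 363 and 307 CPM (-0.88 ± 0.18), Csf1 by 0.59 and Cxcl2 by 2.25, and Ccl9 and Cxcl16 rose by 0.74 and 0.52. Of 30 immediate early genes 4 were higher and 7 lower: Egr2, Egr1, Fos and Ier2 rose by 1.25, 0.77, 0.62 and 0.55, with overlapping groups for Ier2, and Fosl1, Dusp4, Klf10 and Klf4 fell by 0.75, 0.71, 0.60 and 0.49. Fos and Ier2 were not called without elastic replicate 2 or viscoelastic replicate 2, which left 2 of the list higher in either case.

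Genes that conjugate glutathione mainly rose, while the list of NRF2 targets split. Of 17 glutathione S-transferase genes 12 were called higher and 1 lower (median 0.434). Gstm5 read 35.8, 31.8 and 27.3 CPM on elastic and 52.4, 56.3 and 49.8 CPM on viscoelastic gels (0.74 ± 0.082 (SE), adjusted p = 8.67e-05, edgeR), beside Gstm1 at 1.05, Gstm2 at 0.66 and Gstt3 at 0.57. Members of this family share sequence, so reads may be split among them. Gsto1 was the one called lower (-0.19 ± 0.063, adjusted p = 0.0332, edgeR). Akr1c14, an aldo-keto reductase, rose from 10.02, 8.26 and 6.73 CPM to 25.2, 39.7 and 27.4 CPM (1.88 ± 0.19), and the mitochondrial malic enzyme Me3 and the electron carrier Cyb5a by 1.00 and 0.54. Of 41 NRF2 and antioxidant genes 15 were higher and 5 lower. Sod1, superoxide dismutase, read 109, 105.1 and 104.9 CPM against 148, 152 and 154 CPM (0.51 ± 0.057), Cat, catalase, rose by 0.30, and Txnrd1, thioredoxin reductase, fell from 193, 228 and 265 CPM to 168, 147 and 158 CPM (-0.54 ± 0.10). The standard NRF2 targets Nqo1 and Gclm were not called (0.18 ± 0.10 and 0.042 ± 0.084). With length and GC corrected, 8 glutathione S-transferases and 11 of the NRF2 list were called higher.

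Ribosomal protein and respiratory chain genes rose together. Of 79 cytosolic ribosomal protein genes 73 were called higher and 0 lower, with a median log2 fold change of 0.388. Rpl36a read 91.6, 85.9 and 90.01 CPM on elastic and 137, 129 and 157 CPM on viscoelastic gels (0.66 ± 0.076 (SE), adjusted p = 8.88e-05, edgeR), and Rpl21, Rpl31 and Rps28 rose by 0.57, 0.69 and 0.60 on the log2 scale. These genes have many near-identical pseudogenes, and how reads that map to several places were counted is not given in the sources used here. Of 77 nuclear genes of the respiratory chain 53 were higher and 0 lower (median 0.257). Atp5e, a subunit of ATP synthase, read 36.3, 34.3 and 32.3 CPM against 52.1, 50.3 and 53.6 CPM (0.60 ± 0.063), and Ndufa6, of complex I, 31.3, 28.4 and 29.1 CPM against 42.2, 45.2 and 45.4 CPM (0.58 ± 0.060). Of 77 mitochondrial ribosomal proteins 38 were higher and 1 lower, and of 38 proteasome subunits 18 were higher and 2 lower. Ubl5, a ubiquitin-like protein, read 47.8, 43.9 and 43.2 CPM against 66.3, 62.2 and 67.9 CPM (0.54 ± 0.056). Of the 8 tested respiratory genes of the mitochondrial genome edgeR called 0 (median 0.289), with 1 at an unadjusted p under 0.05. DESeq2 called 0 of 13, and edgeR without a filter on low counts 2 of 13. Their values were 0.27 (ND1), 0.26 (ND2), 0.38 (ND4), 0.30 (ND5), 0.35 (ND6), 0.28 (CYTB) and 0.32 (COX1), and ND3 was near 0.

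Short genes as a class were higher on viscoelastic gels, which touches the lists just given. Tested genes were sorted by annotated exon length into 5 bins of equal size. In the bin of the shortest genes (median 1612 bases) 29.3% were called higher and 4.79% lower, and in the bin of the longest (median 9841 bases) 8.34% were higher and 31.3% lower. The median log2 fold change ran from 0.168 in the shortest bin to -0.112 in the longest, and at 2 kPa from 0.096 to -0.091. Ribosomal protein and respiratory chain genes are short (median exon lengths 1770 and 1718 bases), and integrin and kinesin genes are long (7074 and 6393 bases). Genes of mechanosensitive channels, basement membrane and calcium handling are long too (6842, 8039 and 6081 bases), and their counts above are without correction for length. After correction for length and GC, 56 ribosomal protein genes were called higher and 0 lower (median 0.23), whereas 28 respiratory chain genes were higher and 5 lower (median 0.10) and 18 mitochondrial ribosomal proteins higher and 3 lower. Proteasome subunits then gave 8 higher and 2 lower (median 0.013), and overall 2094 genes (14.4%) were higher and 2203 (15.2%) lower. The cell cycle lists stayed low, with 36 mitotic, 22 kinesin and 39 replication genes called lower, and 8 integrins were called lower with a median of -0.15.

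**Figure D4:**
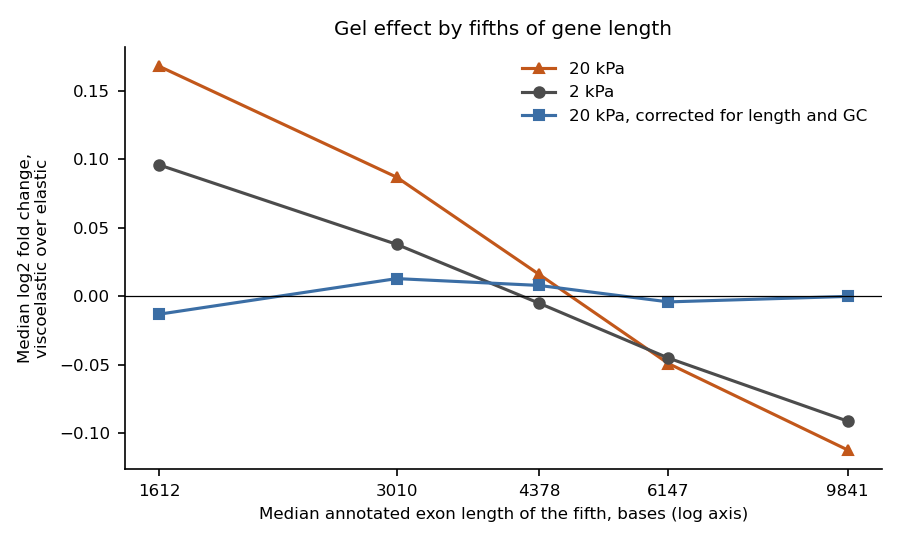
Points are the median log2 fold change of viscoelastic over elastic gels in 5 bins of the tested genes, placed at the median exon length of the bin on a log axis. At 20 kPa (triangles) the medians fall from 0.168 to -0.112, at 2 kPa (circles) from 0.096 to -0.091, and after correction for length and GC at 20 kPa (squares) they lie between -0.013 and 0.013.

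Ribosomal protein mRNAs are known to begin with a terminal oligopyrimidine (TOP) motif, and 4 starts are shown because these genes rose together. A C followed by at least 5 pyrimidines, with the C within 5 bases of the annotated start, was found in 25 of 58 ribosomal protein promoters (43.1%), against 9.86% of all 10882. The 25 bases from 10 before the start are printed with that stretch in capitals.
Rpl31, chr1:39367841-39367865, plus strand: tcctcgCCTCCCCgtgacccggaag
Rpl28, chr7:4792955-4792979, plus strand: tctcgtgtCTCTCTTTCCgtctccg
Rps6, chr4:86857353-86857377, minus strand: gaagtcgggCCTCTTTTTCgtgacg
Rpl38, chr11:114668570-114668594, plus strand: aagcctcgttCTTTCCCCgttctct

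These 4 genes rose by 0.69 (Rpl31), 0.52 (Rpl28), 0.54 (Rps6) and 0.50 (Rpl38) on the log2 scale. Rps6 read 126, 129 and 132 CPM on elastic and 185, 172 and 205 CPM on viscoelastic gels, without overlap.

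Lipid synthesis and axon guidance genes were called mainly on the lower side. Of 41 genes of cholesterol and fatty acid synthesis 12 were lower and 4 higher. The desaturase Scd2 read 508, 532 and 553 CPM on elastic and 422, 420.2 and 409 CPM on viscoelastic gels (-0.35 ± 0.068 (SE), adjusted p = 0.00149, edgeR). Acss2, which makes acetyl-CoA from acetate, rose by 0.47. Of 42 axon guidance genes, whose products steer cell contacts as well as axons, 16 were lower and 5 higher, with the semaphorin receptor Plxna2 at -0.57, the netrin receptor Unc5b at -0.65 and the ligands Slit2 at -0.51 and Efnb2 at -0.40. Sema6a rose from 12.9, 9.56 and 9.94 CPM to 15.6, 21.7 and 15.8 CPM (0.71 ± 0.16). With length and GC corrected, 11 axon guidance genes were lower and 5 higher.

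Lists of metabolism and stress held calls in both directions, to be read against 17.4% higher and 16.1% lower of all tested genes. Shares higher and lower were near or under these for lysosomal genes (11.9% and 4.76%) and chaperones (8.89% and 15.6%). The same held for RNA polymerase subunits (16.1% and 9.68%) and the p53 pathway (10.0% and 20.0%). Of 39 glycolytic and hypoxia-inducible genes 7 were called higher and 10 lower, with Ndrg1 at 0.60, Hif1a at -0.28 and the lactate exporter Slc16a3 at -0.55. Of 37 genes of the ATF4 amino acid response 8 were higher and 7 lower: the transcription factors Atf4 and Atf5 rose by 0.37 and 0.51 on the log2 scale, while the amino acid transporters Slc7a5 and Slc38a2 fell by 0.55 and 0.33. Chaperone genes numbered 4 higher and 7 lower of 45, p53 pathway genes 3 and 6 of 30, lysosomal genes 5 and 2 of 42, RNA polymerase subunits 5 and 3 of 31, tubulins and their cofactors 6 and 7 of 20, and genes that crosslink or process collagen 4 and 7 of 25. The latter parted within a family, as the lysyl hydroxylase Plod2 read 246, 216 and 219 CPM on elastic and 297, 316 and 304 CPM on viscoelastic gels (0.43 ± 0.089 (SE), adjusted p = 0.0022, edgeR) and Plod3 373, 352 and 378 CPM against 299.7, 301 and 284 CPM (-0.32 ± 0.064). Matricellular genes gave 9 higher and 7 lower of 24, elastic fibre genes 3 and 5 of 16, metalloproteinases with their inhibitors 4 and 4 of 18, ADAMTS genes 5 and 3 of 20, fibroblast identity genes 9 and 8 of 34 and genes of G1 with their inhibitors 3 and 7 of 18.

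Markers of the labelled cell type were abundant, and cartilage genes were present beside them. Over 10 fibroblast markers the summed level was 24090 to 26024 CPM on elastic and 27408 to 29561 CPM on viscoelastic gels. Col1a1, Col1a2, Pdgfra and Fbln1 were not called, Dcn, Lum, Vim and Col3a1 rose, Prrx1 fell by 0.19 on the log2 scale (calls lost in 9 of 16 alternatives for Col3a1, 7 for Vim and 12 for Prrx1) and Thy1 fell from 287, 261 and 292 CPM to 179, 221 and 181 CPM (-0.53 ± 0.095 (SE), adjusted p = 0.000837, edgeR). Snai2, a mesenchymal transcription factor, rose by 0.50 and the progenitor marker Cd34 fell by 1.02. Of 8 tested chondrocyte markers 4 were higher and 0 lower, and their summed level was 4244 to 4321 CPM on elastic and 4411 to 5775 CPM on viscoelastic gels. Col9a1, a cartilage collagen, read 179.9, 186 and 183 CPM against 377, 284 and 339.6 CPM (0.86 ± 0.14), and Snorc, Matn3 and Hapln1 rose by 0.75, 0.56 and 0.36. The defining genes Sox9 (0.060 ± 0.092), Acan (-0.012 ± 0.11) and Col2a1 (0.32 ± 0.13) were not called. The part of cartilage cells in the rise of Ogn, Omd, Mfap2 and S100b was not tested. Of the adipocyte markers Lpl and Pparg rose by 0.85 and 0.43, with Adipoq, Plin1 and Cidec under the expression filter. Pericyte markers fell in 3 of 8 cases (Cspg4, Mcam and Myh11), whereas Kcnj8, Abcc9, Rgs5 and Des were near or under 1 CPM. Keratinocyte, leukocyte, endothelial, melanocyte, Schwann cell and skeletal muscle lists summed to at most 27.5, 12.8, 6.93, 14.4, 25.6 and 12.4 CPM in any library.

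The gel effect at 20 kPa was compared with that at 2 kPa, measured in 6 other libraries. At 2 kPa 1275 genes (8.77%) were called higher and 1617 (11.1%) lower. Of the 4865 genes called at 20 kPa 32.6% were also called at 2 kPa, and of the 2892 called at 2 kPa (19.9% of those tested) 54.9% were also called at 20 kPa. Of the 1587 genes called at both, 1394 moved in the same direction and 193 in opposite ones. The difference between the gel effects passed the edgeR test for 1100 genes (7.56%), 647 (4.45%) more positive at 20 kPa and 453 (3.12%) more negative. Of these 1100, 726 were called at 20 kPa. The cell cycle lists moved less at 2 kPa, with medians of -0.260 (mitotic), -0.271 (kinesins) and -0.206 (replication). The difference was called more negative at 20 kPa for 2 of 40, 4 of 23 and 2 of 49 of their genes, against 3.12% of all tested genes. Of the 79 ribosomal protein genes 69 were called higher at 2 kPa too, with a median of 0.319.

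**Figure D5:**
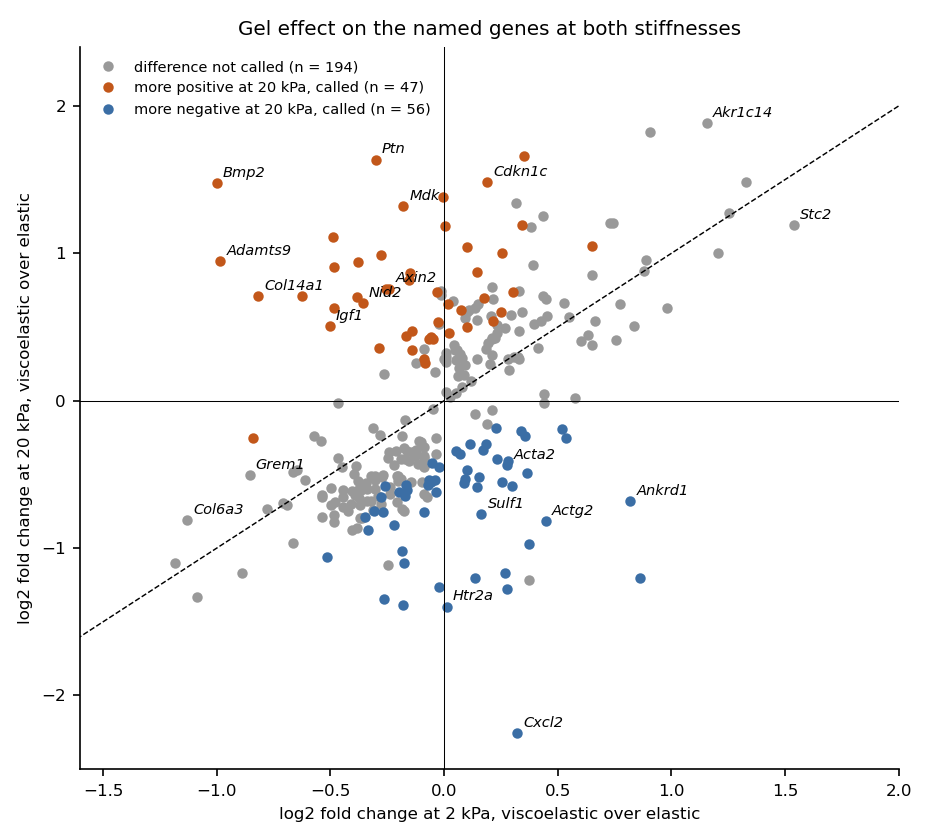
Each point is a gene named here, with its log2 fold change of viscoelastic over elastic gels at 2 kPa (x axis) and at 20 kPa (y axis), and the dashed line marks equal values. Orange and blue points are genes whose difference between stiffnesses edgeR called, with 47 more positive and 56 more negative at 20 kPa, and Adamts9, Ptn and Acta2 lie in the quadrants of opposite direction.

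The difference between stiffnesses was called for secreted factors and matrix genes among others. Ptn rose at 20 kPa and read -0.30 at 2 kPa, a difference of 1.94 ± 0.31 (SE, adjusted p = 0.00161, edgeR). Igf1 gave 0.50 at 20 kPa and -0.50 at 2 kPa (174, 167 and 179 CPM on elastic and 102, 149 and 116 CPM on viscoelastic gels), a difference of 1.01 ± 0.14. Col14a1 gave 0.71 against -0.82 (difference 1.53 ± 0.12) and Nid2 0.66 against -0.36 (difference 1.02 ± 0.13). The gel effect at 2 kPa was itself called for Igf1, Col14a1 and Nid2 but not for Ptn. The WNT genes Axin2 and Apcdd1 gave 0.76 and 0.82 at 20 kPa against -0.24 and -0.16 at 2 kPa (adjusted p of the difference = 0.00357 and 0.0131, edgeR). On the other side Cavin2 fell at 20 kPa (-0.97) and read 0.37 at 2 kPa, and Slco2a1 -1.17 against 0.27. In these 4 genes the effect at 2 kPa was not called. Col6a3 fell at both stiffnesses, at -0.81 and -1.13, and Akr1c14 rose at both, at 1.88 and 1.16, with the difference not called in either gene.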

How the data were processed

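The deposited table holds raw read counts per gene for 12 libraries. Per the study's methods the authors trimmed reads with Trimmomatic, aligned them to mm10 with STAR and counted them with featureCounts on a GENCODE annotation; the strand setting and annotation release are not given in the sources used here. Rows without a gene name (1, at most 0.0001% of counts) were left out.

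Genes passing filterByExpr (minimum count 10, 14541 genes) were fitted over all 12 libraries in 4 groups with edgeR 4.0.16 in R 4.3.3, by quasi-likelihood with TMM scaling and no covariate, where the study's methods name DESeq2. P-values were two-sided and BH adjusted over all tested genes. The common biological coefficient of variation was 7.50%. On simulated data for 20 kPa, on 14541 genes, the fit recovered 35 and 39 of 50 genes changed by log2 -0.5 and 0.5, 44 and 45 of 50 changed by -1 and 1, with 2.98% false calls. The simulation gave all genes the same dispersion, with no deviating library and no trend with length. Its share of false calls is therefore not the error rate of the calls in these data. DESeq2 1.42.0, other scalings, no filter, only the 6 compared libraries, a replicate block, a loess correction for exon length and GC, a stricter threshold and leaving out each replicate were alternatives.

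Members, the 52 gene lists and the 10 marker lists were chosen with earlier results of these data known. Genes were named by rule: among called genes with non-overlapping groups, the 10 up and 10 down with the lowest adjusted p and the 10 up and 10 down with the largest change at a mean of at least 5 CPM; per list up to 4 called genes in each direction, every member of lists of at most 12, and members the list is named for; and Lmna, Lmnb1, Vcl, Tln1, Tln2 and Parp1. Chosen after their values were seen were Mki67, Acta2, Cnn1, Zyx, Ankrd1, Ccn1, Crim1, Ptpn14, Orc1, Lum, Dcn, Fn1, Has1, Apcdd1, Lef1, Inhba, Cdkn1a, the imprinted and marker genes and the other genes whose promoters are shown. Promoters came from RefSeq tables of GRCm38.p6, matched by symbol. A few genes are not reported here. Samples were grouped by their titles.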

Additional observations from a re-analysis of the deposited data

Results flagged for a closer look

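For 103 of the genes named here the gel effect at 20 kPa differed from that at 2 kPa by edgeR's interaction test (adjusted p under 0.05), against 7.56% of all tested genes. Many of them were named for their values at 20 kPa, so their number is a description. The values below are differences of log2 fold changes, the gel effect at 20 kPa minus the gel effect at 2 kPa. In 62 of the 103 genes the fold changes had opposite signs at the stiffnesses, whether or not each passed its own test.

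The difference was positive for 47 genes. The most positive were Bmp2 2.48, Ptn 1.94, Adamts9 1.93, Timp4 1.60, Col14a1 1.53, Mdk 1.50, Ifi203 1.39, Mmp15 1.39, Sema6a 1.34, S100b 1.32, Dpt 1.31 and Cdkn1c 1.29. For Bmp2 the log2 fold change at 20 kPa was 1.48, and 0.70, not called, without viscoelastic replicate 2. Next came G0s2 1.27, Psmb9 1.18, Fjx1 1.11, Lum 1.09, Nid2 1.02, Snorc 1.01, Col9a1 1.01, Igf1 1.01, Axin2 1.00, Apcdd1 0.98 and Mfap2 0.94. Then followed Nkd1 0.85, Ccl9 0.77, Me3 0.75, H19 0.73, Efemp1 0.64, Hapln1 0.64, Lef1 0.61, Acss2 0.61, Tgfb1 0.59, Cdkn2b 0.56, Rgs3 0.54 and Kcnk2 0.52. The smallest of these were Pparg 0.49, Tead2 0.49, Plagl1 0.48, Fgfrl1 0.46, Pdgfa 0.44, Gstm5 0.44, Snai2 0.40, Gstm1 0.40, Id2 0.37, Atp5e 0.35, Kdm6b 0.34 and Ubl5 0.33.

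The difference was negative for 56 genes, among them the contractile genes Actg2, Tagln, Cnn1 and Acta2. The most negative were Cxcl2 -2.57, Myh11 -2.06, Ppbp -1.55, Ankrd1 -1.50, Slco2a1 -1.44, Htr2a -1.41, Has1 -1.34, Cavin2 -1.34, Actg2 -1.26, Cd53 -1.24, F5 -1.20, Ereg -1.08, Lrrtm2 -0.93 and Sulf1 -0.93. After these came Tagln -0.88, Klf4 -0.86, Cd34 -0.83, Slc16a3 -0.81, Cnn1 -0.79, Csf1 -0.73, Acta2 -0.71, Cav3 -0.71, Fzd4 -0.70, Fbln2 -0.67, Pkn3 -0.67, Timp1 -0.65, Efnb2 -0.63, Itga3 -0.62 and Thy1 -0.62. Further negative differences were Zyx -0.60, Axl -0.58, Hgf -0.57, Fanca -0.55, Ulbp1 -0.54, Tln2 -0.54, Hdac7 -0.51, Plxna2 -0.50, Txnrd1 -0.50, Lbr -0.49, Flnc -0.49, Hdac4 -0.48, Nid1 -0.47, Tnc -0.47 and Myof -0.44. The remaining ones were Arrdc3 -0.44, Kif15 -0.44, Tes -0.43, Tmpo -0.43, Gsto1 -0.42, Kif2c -0.42, Pdlim7 -0.41, Smad7 -0.40, Crim1 -0.39, Bub1b -0.37, Diaph1 -0.37 and Hjurp -0.32.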

How the results depend on the processing

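Of 268 called genes named here, 229 were called in the same direction under all 16 alternatives. At an adjusted p under 0.01, 2733 genes were called at 20 kPa, 1354 at 2 kPa and 399 for the difference between them, with 9 contractile genes lower and 25 mitochondrial ribosomal proteins higher. With length and GC corrected, 28 respiratory chain genes and 18 mitochondrial ribosomal proteins were higher. Leaving out 1 library at a time gave 3175 to 4767 genes at 20 kPa, 1545 to 3084 at 2 kPa and 670 to 1182 for the difference, 9 to 17 contractile genes lower, 41 to 49 respiratory chain genes and 26 to 35 mitochondrial ribosomal proteins higher. The lowest values came without elastic replicate 3 at 20 kPa (3175 genes, 9 contractile genes) and without elastic replicate 1 at 2 kPa (1545 at 2 kPa, 670 for the difference). Without elastic replicate 2 at 2 kPa 1925 genes were called at 2 kPa, and without viscoelastic replicate 1 at 20 kPa 727 were called for the difference. Beyond the construction of each alternative, the cause was not tested. Scaling by total counts gave 2937 genes higher and 1899 lower, with the median of all genes at 0.052, and DESeq2 gave 2314 and 2568.

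Leaving out 1 library moved the count of calls by over 1.5 times in at least 1 direction for 34 of the 52 lists, and for 26 of them where that count was at least 4. The value farthest from the full count follows for each such list but the interferon list, under the library left out. Without elastic replicate 2 at 20 kPa, edgeR called 3 YAP and TEAD targets, 5 matricellular genes, 2 immediate early genes, 1 DNA methylation gene, 2 lysosomal genes, 5 ATF4 genes and 3 axon guidance genes higher, and 5 fibroblast identity genes and 2 NRF2 genes lower. Without elastic replicate 3, edgeR called 1 collagen, 3 tubulins, 4 histone acetylation genes, 1 DNA methylation gene and 1 lipid synthesis gene higher, and 9 contractile genes, 4 collagen processing genes, 1 IGF gene, 5 fibroblast identity genes, 4 immediate early genes, 3 DNA methylation genes, 6 lipid synthesis genes, 4 glycolytic genes, 2 NRF2 genes, 3 ATF4 genes, 3 chaperones and 4 PDGF, FGF and HGF genes lower. Without viscoelastic replicate 1, edgeR called 5 fibroblast identity genes, 4 immediate early genes, 3 DNA methylation genes and 2 NRF2 genes lower. Without viscoelastic replicate 2, edgeR called 3 YAP and TEAD targets, 4 BMP genes, 2 immediate early genes and 2 cytokines higher, and 4 tubulins, 8 histone methylation genes, 3 histone acetylation genes, 3 DNA methylation genes and 3 chaperones lower. Without viscoelastic replicate 3, edgeR called 11 proteasome subunits higher, and 3 collagens, 4 collagen processing genes, 1 gene of metalloproteinases and inhibitors, 2 WNT genes, 1 IGF gene, 4 immediate early genes, 3 DNA methylation genes, 4 glycolytic genes and 9 axon guidance genes lower.

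The call was lost in 13 of the 16 alternatives for Tgfb3, in 12 for Cdkn2a and Prrx1, in 10 for Matn3, in 9 for Col3a1, Ier2 and Tln2, in 8 for Fos, Mmp17 and Rpa3, in 7 for Ccn1, Igf2r, Masp1, Mmp9, Vim and Zim1, and in 1 to 6 for 23 other genes. The log2 fold change of 12 called genes moved by over 1.5 times without 1 library. Without elastic replicate 3 Mmp9 read -0.48, Ptgs2 -0.56, Ankrd1 -0.45, Masp1 -0.23 and Col8a2 0.17. Without viscoelastic replicate 2 Bmp2 read 0.70, Mfap4 0.41, Fos 0.39, Ier2 0.33, Ccn1 0.27, Nuak2 0.21 and Tgfb3 0.13, and without elastic replicate 2 Fos 0.38 and Ier2 0.34.

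Same-numbered replicates did not deviate together at 20 kPa (correlations -0.157, -0.124 and 0.050), so the numbers were not taken as a pairing. With a replicate block 4484 genes were called at 20 kPa, 2568 at 2 kPa and 845 for the difference. With the block and the length and GC correction, 26 respiratory chain genes and 17 mitochondrial ribosomal proteins were higher.

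The sign turned in 9 genes, of which edgeR called 0 at 20 kPa. With length and GC corrected Acan read 0.074, Ccn2 -0.074 and Nqo1 -0.026, with the block added 0.078, -0.082 and -0.020, and ND2 -0.0075. With total counts Acan read 0.023 and Arrdc2 0.017. Leaving out 1 library at a time gave -0.11 to 0.10 for Acan, -0.15 to 0.050 for Arrdc2, -0.063 to 0.074 for Ccn2, -0.016 to 0.14 for Cdkn1a, -0.0026 to 0.044 for Col1a1, -0.0047 to 0.088 for Gclm and -0.040 to 0.17 for Pdgfra. Low counts limit the precision for genes near the filter, such as Lama3, Psmb9 and Rsad2.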

Other observations

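Imprinted genes, expressed from the allele of one parent, were looked at after the values of H19 and Cdkn1c had been seen, so the list is a description. Of 29 genes 23 were tested, 8 were called higher and 1 lower on viscoelastic gels at 20 kPa, with a median log2 fold change of 0.207 against 0.016 over all tested genes. At 2 kPa 5 were higher and 4 lower, against 8.77% and 11.1% of all tested genes, with a median of 0.145. H19, a noncoding RNA, read 499, 446 and 376 CPM on elastic and 830.0, 806 and 786 CPM on viscoelastic gels (0.87 ± 0.10 (SE), adjusted p = 0.000109, edgeR), and 0.15 at 2 kPa. Igf2, its neighbour, was low at 2.82, 2.60 and 1.58 CPM against 3.86, 3.93 and 3.74 CPM (0.71 ± 0.21). Plagl1, a zinc finger transcription factor, rose by 0.42 on the log2 scale, Sgce by 0.47, Ndn by 0.35, Peg3 by 0.29 and Zim1 by 0.63. The gene that fell was Igf2r, which clears the ligand Igf2.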
